A study of Mus musculus with 43 samples.

Results

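The IL-1 family cytokine and receptor genes Il18, Il33, Il1a, Il1rn, Il1r1, Il1rap and Il1rl1, the last of which encodes ST2, were followed by RNA sequencing in mouse colon epithelium and colon fibroblasts exposed to regorafenib, an inhibitor of several kinases. The 7 genes are 7 of the 52636 genes in each of the 2 deposited tables and were picked by name, with the values of Il18 in epithelium and of Il1rl1 in fibroblasts already known, so these 2 sets of values are described here without a test. Colonoids came from 3 tamoxifen-treated Vil-creERT2 mice with Apc wt/wt (lines M41, M40 and M1), and tumoroids came from 3 tamoxifen-treated Vil-creERT2 mice with Apc flox/flox, in which Cre driven by the villin promoter deleted Apc in the epithelium (lines F11, M3 and M14). Each line was 1 mouse of 2 months, all male except F11, and all organoid groups, the controls included, carry Vil-creERT2 in the heterozygous state. Organoids were kept for 6 days with vehicle (Ve, DMSO), 4 µM regorafenib (R4), 8 µM regorafenib (R8) or 1 µM 5-fluorouracil (5-FU), which gave 24 libraries in 8 groups of 3. Fibroblasts grown from colon tissue left after crypt isolation in wild-type C57BL/6 mice (lines M3 and M3(2), from males of 2 months, and M1(2) and M11, whose age is not given in the sources used here) were kept for 7 days with Ve, R4, 10 µM regorafenib (R10), 1 µM autogramin-2 (A1), an autophagy inhibitor, or R4 with A1 (R4A1), which gave 19 libraries, 4 in each group and 3 for R10, where M11 has none.

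IL-18 and IL-33 are made as inactive or stored forms in barrier epithelium and released on injury. IL-18 is matured by inflammasome caspases and signals through a receptor of an IL-18-binding chain (Il18r1) and an accessory chain (Il18rap), while IL-33 binds ST2 paired with the accessory protein encoded by Il1rap, which IL-1 receptor type 1 (Il1r1) uses as well. IL-1 alpha (Il1a) activates that receptor, and the receptor antagonist (Il1rn) occupies it without signalling. All of these receptors pass their signal through MyD88 and IRAK kinases to NF-kB.

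On GRCm38 the genes lie on 5 chromosomes. Il18 (ENSMUSG00000039217) is on chromosome 9 at 50554827 to 50581840, Il33 (ENSMUSG00000024810) on chromosome 19 at 29925114 to 29960718, Il1rn (ENSMUSG00000026981) on chromosome 2 at 24336853 to 24351494, Il1a (ENSMUSG00000027399) on chromosome 2 at 129299610 to 129309972 and Il1rap (ENSMUSG00000022514) on chromosome 16 at 26581704 to 26730117. Il1r1 (ENSMUSG00000026072), at 40225080 to 40317257 of chromosome 1, and Il1rl1 (ENSMUSG00000026069), at 40429570 to 40465415, belong to a run of receptor genes in the order Il1r2, Il1r1, Il1rl2, Il1rl1, Il18r1 and Il18rap. Il18r1 begins 136 bases after the end of Il1rl1, and Il18rap begins 14507 bases after the end of Il18r1. Exons of Il1a and Il1rap overlap exons of the genes Gm14023 and Gm20319 on the opposite strand, and whether reads were counted by strand is not given in the sources used here, so reads of those pairs may be mixed.

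The windows of 250 bases before the RefSeq start (RefSeq, GRCm38.p6, plus strand) are shown for Il18 and Il1rl1, the genes whose levels differed most with regorafenib in the epithelium and in fibroblasts, and for Il18rap, the receptor gene of the same cluster that was higher at R4 in all organoid lines and lower in all fibroblast lines. Capitals mark matches to the motifs searched on both strands, which were those of AP-1 (TGANTCA), of NF-kB (GGANTTTCC), of CREB (TGACGTCA) and of GATA factors, spelled AGATAA, besides the box of the core promoter spelled TATAAA. The Il18 window lies at chr9:50554450-50554699, that of the upstream start of Il1rl1 at chr1:40429320-40429569 and that of Il18rap at chr1:40515112-40515361.
Il18: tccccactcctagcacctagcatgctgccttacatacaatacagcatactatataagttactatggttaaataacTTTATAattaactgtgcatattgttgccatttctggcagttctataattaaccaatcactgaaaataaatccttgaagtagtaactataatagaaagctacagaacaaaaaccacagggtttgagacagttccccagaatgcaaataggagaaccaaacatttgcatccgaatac
Il1rl1: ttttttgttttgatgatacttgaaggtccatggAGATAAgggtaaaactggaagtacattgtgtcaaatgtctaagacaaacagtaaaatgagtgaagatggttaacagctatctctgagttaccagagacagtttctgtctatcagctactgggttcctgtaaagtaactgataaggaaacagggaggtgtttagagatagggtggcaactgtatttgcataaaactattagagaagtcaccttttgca
Il18rap: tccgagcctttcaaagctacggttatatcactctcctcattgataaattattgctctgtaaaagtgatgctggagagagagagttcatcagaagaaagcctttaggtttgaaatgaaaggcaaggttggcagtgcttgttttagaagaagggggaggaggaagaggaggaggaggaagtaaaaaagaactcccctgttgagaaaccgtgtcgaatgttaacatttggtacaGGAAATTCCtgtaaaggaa
The Il18 window held 1 TATA box on the opposite strand, 175 bases before the start, the Il1rl1 window held 1 GATA match 217 bases before the start, and the Il18rap window held 1 NF-kB match on the opposite strand, 19 bases before the start, where a longer form of that motif with 1 more leading G had none. A second start of Il1rl1 had 1 GATA match on the opposite strand 103 bases before it. Of the 32851 windows of this length, 12.4% held the TATA letters, 9.99% GATA, 6.75% AP-1, 1.55% CREB and 1.07% NF-kB. No match overlapped another, and each is a match of letters only.

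Values are given as CP20M, reads per gene scaled to 20000000 per library, so that 20 CP20M is 1 CPM (count per 1000000 reads). Libraries held 512592 to 22369266 reads in organoids and 7949965 to 12825919 in fibroblasts. The shallowest was colonoid M41 at R4, in which 1 read is 39.0 CP20M, against 0.894 to 4.58 in the other organoid libraries, and the regorafenib values of the members in organoids are given with and without it. Summed epithelial markers (Epcam, Cdh1, Vil1, Krt8 and Krt18) were 65159 to 170349 CP20M in organoids and at most 96 in fibroblasts, and fibroblast markers were 99057 to 168895 in fibroblasts and at most 118 in organoids. The fibroblast cultures also held markers of macrophages, endothelium and glia, given below. The macrophage list was not particular to them, since it summed to 790 to 3660 CP20M in organoids and 503 to 5561 in fibroblasts. Of that list, Csf1r was 352 to 625 in organoids and 190 to 585 in fibroblasts, while Lyz2 was at most 4 and 186 to 4214. The 2 tables were scaled separately, so no test was made across them, and in bulk RNA fewer cells of a type and less RNA per cell cannot be told apart.

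Il18 was the most abundant member in vehicle colonoids per kilobase of exon, at 156 CPM per kb, ahead of Il1rn at 66.8, Il33 at 9.38, Il1r1 at 1.43, Il1a at 1.39, Il1rap at 1.1 and Il1rl1 at 0.104. Before division by length Il1rn stood above Il18, at 7396 ± 3410 against 3211 ± 489 CP20M. The lengths join the exons of all transcripts, 5535 bases for Il1rn and 1031 for Il18, so the order of these genes depends on them. Fibroblasts had another order, with Il1rap at 9.89 CPM per kb in vehicle, Il1rl1 at 8.58, Il1r1 at 3.34, Il33 at 0.819, Il18 at 0.327, Il1a at 0.139 and Il1rn at 0.102. The cytokines and the antagonist thus stood higher in vehicle colonoids, and the member receptors Il1rap, Il1rl1 and Il1r1 in vehicle fibroblasts, as levels in 2 tables set side by side. This does not hold for all receptors of the family. Outside the members, Il18r1 and Sigirr stood higher in organoids, while Il1rl2 stood higher in fibroblasts.

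Il18, the epithelial cytokine, was lower with regorafenib in every organoid line. In colonoids M41, M40 and M1 it stood at 3770, 2864 and 3000 CP20M in vehicle, 157, 507 and 612 at R4 and 247, 273 and 723 at R8. The vehicle libraries did not overlap with those of either dose. The value of 157 in M41 at R4 is 4 reads, and M41 at R8, a library of usual depth, was at 6.55% of its vehicle. In tumoroids F11, M3 and M14 Il18 stood at 826, 699 and 1291 CP20M in vehicle, 380, 196 and 378 at R4 and 411, 325 and 412 at R8. Here too all 6 regorafenib values lay below the 3 vehicle values. What remained of the vehicle level was 17.7% and 20.4% in colonoids M40 and M1 at R4 and 28.0% to 46.0% in the tumoroids.

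Vehicle tumoroids held less Il18 than vehicle colonoids, 939 ± 312 against 3211 ± 489 CP20M (SD, n = 3), with no overlap. At R8 the genotypes stood at 383 ± 49.9 and 414 ± 268 and overlapped. As a description, the fitted log2 fold change with regorafenib over both genotypes was −2.20 ± 0.28 (SE), and −2.06 ± 0.22 without the shallow library. It was −1.79 ± 0.45 for vehicle tumoroids against vehicle colonoids, and the fold with regorafenib was smaller in tumoroids by 1.68 ± 0.55 on the log2 scale, or 1.40 ± 0.43 without the shallow library. Between R8 and R4 it differed by 0.15 ± 0.32, and the sign turned without the shallow library (−0.14). With 5-FU Il18 was 3279, 1895 and 2082 CP20M in the colonoids and 752, 508 and 1266 in the tumoroids, below vehicle in 6 of 6 lines, with overlapping groups and a log2 fold change of −0.32 ± 0.32. Ordered by mean, the organoid groups ran from vehicle colonoids through 5-FU colonoids (2419 ± 751), vehicle tumoroids, 5-FU tumoroids (842 ± 387) and R4 colonoids (425 ± 238) to R8 colonoids, R8 tumoroids and R4 tumoroids (318 ± 106), and the only neighbours in that order that did not overlap were 5-FU colonoids and vehicle tumoroids. In fibroblasts Il18 was 0 to 14 CP20M in all 19 libraries.

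Markers of differentiated colonocytes (Car1, Car4, Slc26a3, Aqp8, Krt20, Guca2a and Ceacam1) were, like Il18, lower in sum with regorafenib than in vehicle. Their sum was 33064 to 36098 CP20M in vehicle colonoids, 2345 to 9138 at R4 and 2690 to 5226 at R8. In tumoroids it was 14196 to 18319 in vehicle, 3039 to 7455 at R4 and 1636 to 4089 at R8, and with 5-FU it was 18678 to 26795 in colonoids and 8109 to 13351 in tumoroids. With 5-FU the sum thus lay below vehicle without overlap in both genotypes, where Il18 overlapped. Of the 7 genes 3 passed the filter on low values, and 2 of these fell with regorafenib. Car1, a colonocyte carbonic anhydrase, had a log2 fold change of −4.60 (limma, adjusted p = 2.94e-05) and Ceacam1, an adhesion molecule, −2.51 (limma, adjusted p = 3.3e-05). Krt20, the remaining gene, had −1.20 and was not past the threshold (limma, adjusted p = 0.196). The part of these cells in the Il18 values was not tested.

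**Figure D1:**
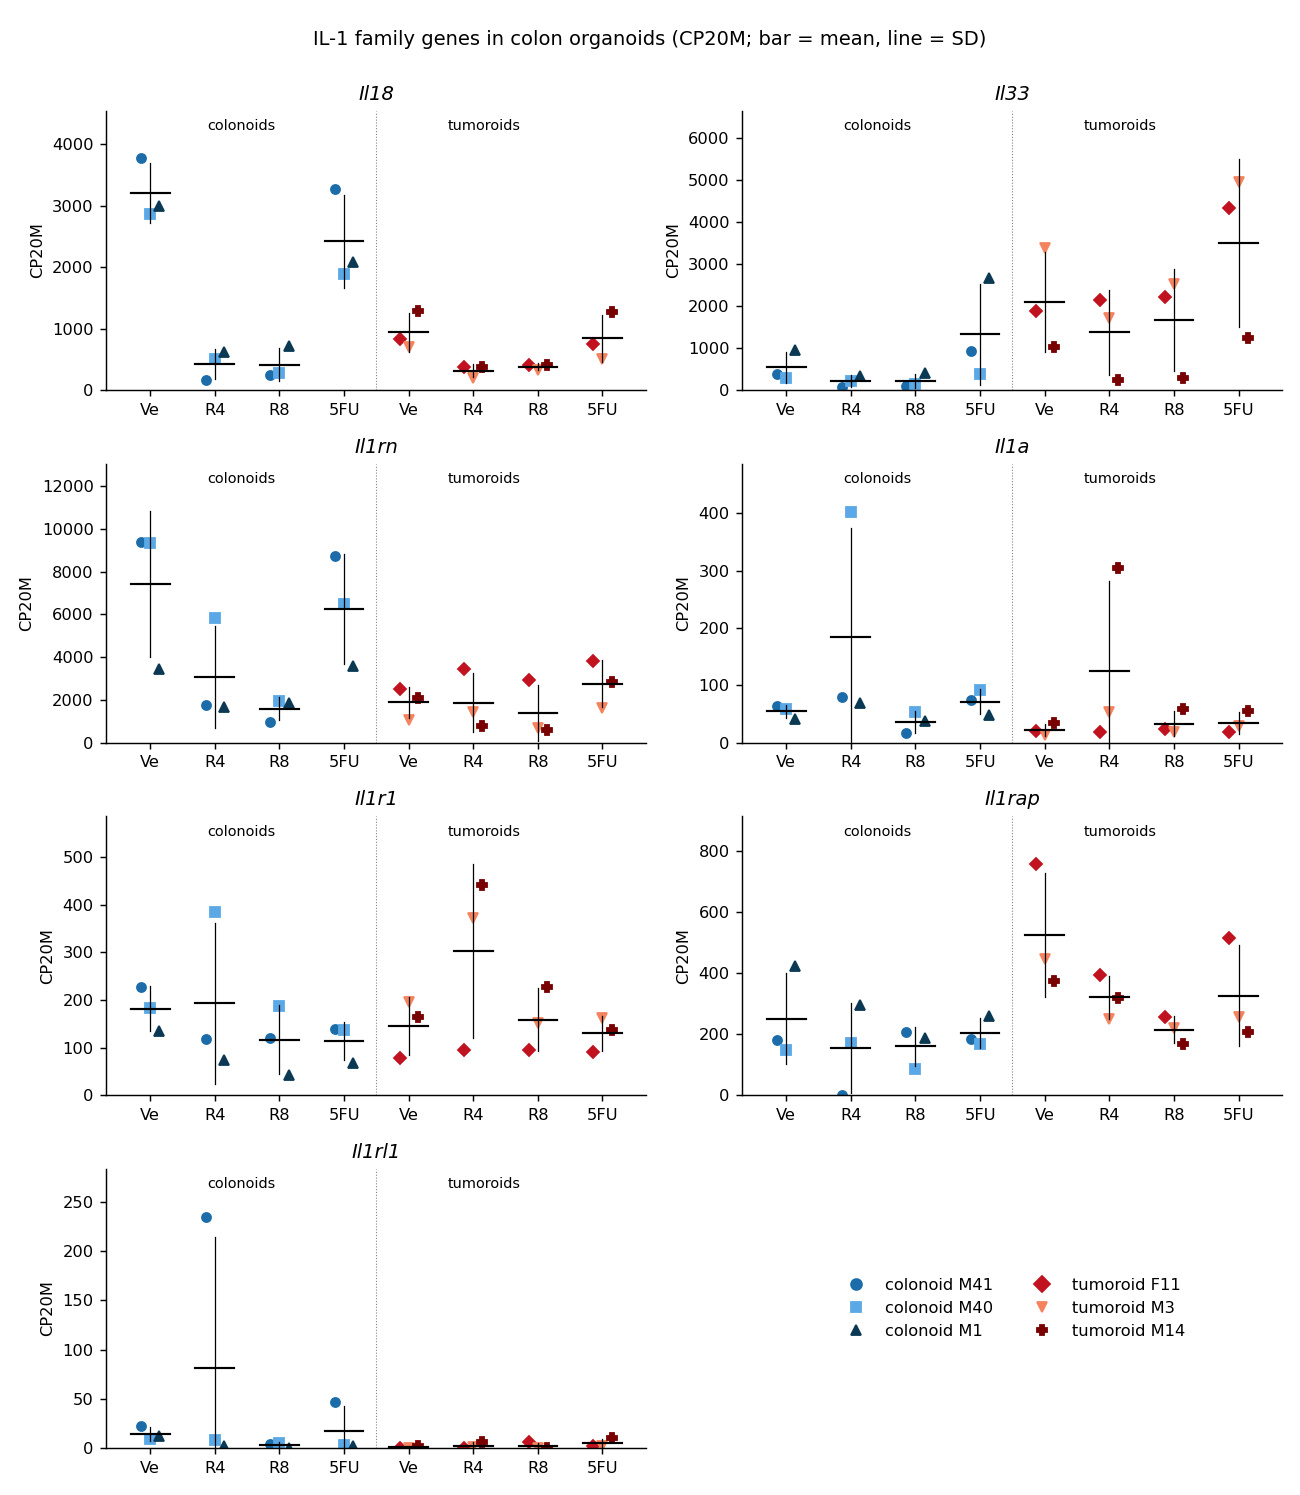
CP20M of the 7 genes in the 24 organoid libraries, by treatment (Ve vehicle, R4 and R8 regorafenib at 4 and 8 µM, 5FU 5-fluorouracil), with colonoids at the left and tumoroids at the right of each panel. Points are lines, horizontal bars are means and vertical lines are SD cut at 0 (n = 3). Il18 sits at 157 to 723 in every regorafenib library and at 699 to 3770 in every vehicle library, and the Il1rl1 point at 235 is 6 reads of the shallow library.

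Il33, an alarmin stored in the nucleus, differed widely between lines. In colonoids M41, M40 and M1 it was 383, 280 and 962 CP20M in vehicle, 79, 224 and 341 at R4 and 99, 152 and 403 at R8. In tumoroids F11, M3 and M14 it was 1887, 3370 and 1030 in vehicle, 2146, 1722 and 238 at R4 and 2215, 2510 and 279 at R8. It was lower than vehicle in 5 of 6 lines at each dose, with F11 the exception at both. The mean log2 fold change with regorafenib was −1.03 ± 0.55 and was not past the threshold (limma, adjusted p = 0.182). With the line as a replicate block the adjusted p was 0.00745, still above the FDR of 0.001 used for this comparison. Without the shallow library, where M41 at R4 has 2 reads, the log2 fold change was −0.90 ± 0.55 (limma, adjusted p = 0.204).

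With 5-FU Il33 was higher than vehicle in 6 of 6 lines. It stood at 916, 385 and 2666 CP20M in the colonoids and at 4334, 4947 and 1229 in the tumoroids. The lines differed so widely that the groups overlapped, and the log2 fold change of 0.85 ± 0.65 was not past the threshold (limma, adjusted p = 0.605). The replicate block gave 0.0897, and the block without the shallow library, an alternative added after the data were seen, gave a call (limma, adjusted p = 0.0399), where 7.03% of all genes tested had one. Vehicle tumoroids had 2096 ± 1180 CP20M and vehicle colonoids 542 ± 368, with every tumoroid above every colonoid, and the log2 difference of 1.95 ± 0.90 was not past the threshold (limma, adjusted p = 0.319). In fibroblasts Il33 stayed low, at 17, 41, 95 and 36 CP20M in vehicle (lines M3, M3(2), M1(2) and M11), 8, 14, 44 and 10 at R4 and 7, 5 and 35 at R10. It was below the same line's vehicle in 4 of 4 lines at R4 and 3 of 3 at R10, but it did not pass the filter on low values.

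Il1a, an IL-1 receptor agonist, was low, with 2 libraries standing out. It was 14 to 92 CP20M in 22 of 24 organoid libraries, while colonoid M40 and tumoroid M14 had 403 and 305 at R4. The same lines had 54 and 58 at R8. The log2 fold change was 0.52 ± 0.44 with regorafenib (limma, adjusted p = 0.408) and −1.24 ± 0.51 for R8 against R4 (limma, adjusted p = 0.266). Without the shallow library these were 0.60 ± 0.45 and −1.41 ± 0.54 (limma, adjusted p = 0.293 and 0.18), and without line M40 or line M14 Il1a did not pass the filter on low values. No fibroblast library had more than 13 CP20M.

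Il1rn, the receptor antagonist, was lower with regorafenib in colonoids but not in every tumoroid. In colonoids M41, M40 and M1 it was 9378, 9354 and 3457 CP20M in vehicle, 1756, 5842 and 1673 at R4 and 975, 1945 and 1849 at R8. The 3 colonoids at R8 lay below all 3 vehicle colonoids, while R4 and vehicle overlapped. In tumoroids F11, M3 and M14 it was 2501, 1060 and 2075 in vehicle, 3441, 1417 and 763 at R4 and 2909, 702 and 579 at R8. F11 stood above its vehicle at both doses, and M14 below at both. Over both genotypes the log2 fold change was −1.1 ± 0.41 (limma, adjusted p = 0.0611, and 0.0127 with the replicate block), which was not past the FDR of 0.001, and without the shallow library it was −1.03 ± 0.43 (limma, adjusted p = 0.0626). Vehicle tumoroids lay below vehicle colonoids without overlap, with a log2 difference of −1.92 ± 0.68 that was not past the threshold (limma, adjusted p = 0.182). The difference between genotypes in the response was 1.30 ± 0.83 (limma, adjusted p = 1.0), with a 95% interval of −0.463 to 3.06. With 5-FU Il1rn was higher in the 3 tumoroids by a mean log2 of 0.55 and mixed in the colonoids, and the joint log2 fold change of 0.18 ± 0.46 was not past the threshold (limma, adjusted p = 0.925).

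In fibroblasts Il1rn was near the limit of counting. It was 8, 11, 13 and 13 CP20M in vehicle, 2, 0, 0 and 0 at R4, 0 in all 3 libraries at R10, 5, 5, 12 and 6 with A1 and 3, 0, 3 and 0 with R4A1. No regorafenib library reached the lowest vehicle library. It did not pass the filter on low values, and in the fit without that filter the log2 difference was −0.61 at R4 (limma, adjusted p = 0.000872), where 0.362% of the genes tested passed.

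Il1rl1, which encodes ST2, was lower in every fibroblast line with regorafenib. Lines M3, M3(2), M1(2) and M11 had 997, 691, 1858 and 1187 CP20M in vehicle and 119, 80, 87 and 42 at R4. At R10 the 3 lines M3, M3(2) and M1(2) had 90, 82 and 55. What remained at R4 was 11.9%, 11.6%, 4.68% and 3.54% of the vehicle level of the same line. The lines with the most Il1rl1 in vehicle, M1(2) and M11, kept the smallest shares, but each share is divided by that vehicle level, so the 2 are not independent. R4 and R10 overlapped. Within the 3 lines that have both doses, Il1rl1 was lower at R10 than at R4 in 2 and higher in 1, by a mean log2 of −0.274. As a description, the log2 fold changes were −3.53 ± 0.41 at R4 and −3.58 ± 0.44 at R10, and −2.76 and −2.80 when 100 rather than 20 CP20M was added before the logarithm.

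With A1 alone the same lines had 675, 389, 1318 and 521 CP20M of Il1rl1, below vehicle in 4 of 4 lines, with overlapping groups and a log2 fold change of −0.75 ± 0.41. With R4A1 they had 102, 75, 103 and 20. These values overlapped with R4 alone, and the log2 difference between them was −0.17 ± 0.41. By mean the groups ran from vehicle (1183 ± 494, n = 4) and A1 (726 ± 412, n = 4) to R4 (82.0 ± 31.6, n = 4), R10 (75.7 ± 18.3, n = 3) and R4A1 (75.0 ± 38.9, n = 4), and A1 and R4 were the only neighbours that did not overlap. Counts per gene do not separate the membrane receptor from soluble ST2, which the same gene encodes. In organoids Il1rl1 was 0 to 47 CP20M in 23 libraries, and the 24th, at 235, is 6 reads of the shallow library.

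Other cells known to carry ST2 were checked in the fibroblast cultures. The mast cell markers Mcpt4 and Cpa3 were at 0 and at most 3 CP20M, and Il13, Cd3e and Cd3g, of group 2 innate lymphoid cells and T cells, were at 0 in all 19 libraries. The whole mast cell list summed to 23 to 135 CP20M in vehicle, 19 to 45 at R4 and 5 to 17 at R10, with the leukocyte gene Ptprc at 7 to 133 in vehicle, and the list of group 2 innate lymphoid cells and T cells to 251 to 350, 224 to 375 and 209 to 336. The largest part of the latter list was Gata3, at 152 to 311, 150 to 361 and 199 to 320. Il7r, also of that list, was 5 to 27, 7 to 33 and 0 to 7. Macrophage markers summed to 1179 to 5561 CP20M in vehicle, 748 to 2037 at R4 and 609 to 651 at R10, and Lyz2, a macrophage lysozyme, fell at R10 by 2.60 on the log2 scale (limma, adjusted p = 0.00806). Endothelial markers summed to 1170 to 9653 in vehicle and 1873 to 25937 at R4, and glial markers to 775 to 14937 and 1016 to 13003. Among fibroblast markers Pdgfra, a receptor of platelet-derived growth factor, fell by 2.51 on the log2 scale at R4 (limma, adjusted p = 0.0459) and by 3.03 at R10 (limma, adjusted p = 0.0055), while none of the other 5 markers passed at either dose. At R4 these had log2 fold changes of 0.18 for Col1a1, −0.68 for Col1a2, 0.85 for Dcn, 1.08 for Thy1 and 0.79 for Lum. The part of these cells in the Il1rl1 values was not tested.

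**Figure D2:**
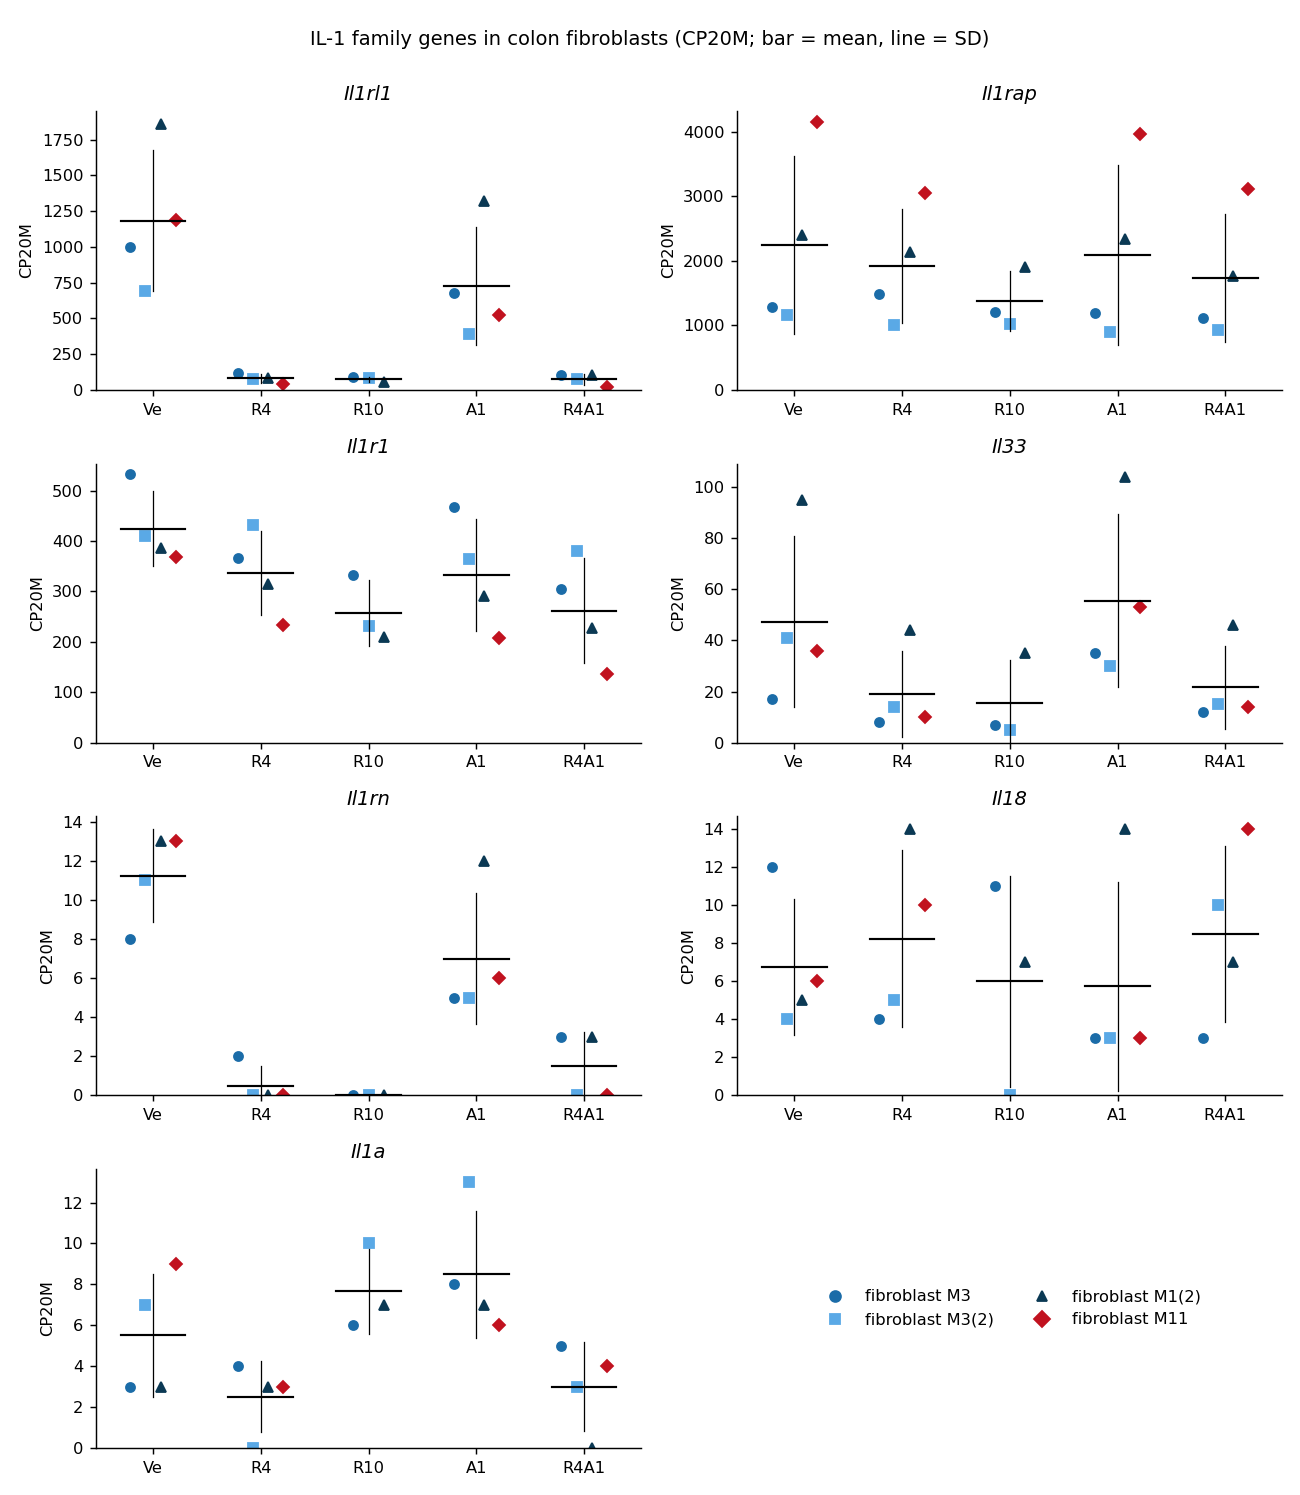
CP20M of the 7 genes in the 19 fibroblast libraries, by treatment (Ve vehicle, R4 and R10 regorafenib at 4 and 10 µM, A1 autogramin-2, R4A1 both). Points are lines, horizontal bars are means and vertical lines are SD cut at 0 (n = 4, and 3 for R10). Il1rl1 sits at 20 to 119 in all 11 libraries with regorafenib and at 389 to 1858 in the 8 without it, and the bottom panels span less than 15 CP20M.

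Il1r1, the signalling receptor for IL-1, was present in both cell types. In fibroblasts M3, M3(2), M1(2) and M11 it was 534, 411, 386 and 368 CP20M in vehicle, 367, 432, 314 and 234 at R4 and, in the first 3 lines, 332, 231 and 209 at R10. The R10 libraries lay below all vehicle libraries, while R4 overlapped with vehicle. The log2 fold change at R10 was −0.69 ± 0.30 and was not past the threshold (limma, adjusted p = 0.144). With the line as a replicate block it was −0.86 ± 0.16 and passed (limma, adjusted p = 0.000357), and it also passed without line M11, which has no R10 library (−0.75). At R4 it was −0.34 ± 0.28 (limma, adjusted p = 0.668) and with A1 −0.38 ± 0.28 (limma, adjusted p = 1.0). Adding A1 to R4 gave 305, 381, 227 and 136 CP20M, a log2 difference of −0.39 ± 0.28 that was not past the threshold (limma, adjusted p = 0.935).

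In organoids Il1r1 was 42 to 442 CP20M. It was above vehicle at R4 in all 3 tumoroids, at 96, 372 and 442 against 78, 196 and 164 in F11, M3 and M14, and in colonoid M40, at 385 against 183, but not in M41 and M1. Over both doses the log2 fold change was 0.01 ± 0.37, with a 95% interval of −0.786 to 0.808 (limma, adjusted p = 0.988), and 0.05 ± 0.39 without the shallow library.

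Il1rap, the accessory chain shared by ST2 and Il1r1, followed the fibroblast line rather than the treatment. In vehicle it was 1287, 1159, 2396 and 4152 CP20M in M3, M3(2), M1(2) and M11, and at R4 1483, 1014, 2136 and 3056. Line M11 was highest in each of the 4 groups that hold it. The log2 fold change was −0.15 ± 0.51 at R4, with a 95% interval of −1.23 to 0.935 (limma, adjusted p = 0.943), and −0.55 ± 0.55 at R10 (limma, adjusted p = 0.582). M11 has no R10 library, and without it the R10 value was −0.20, while the replicate block gave −0.22 ± 0.10 (limma, adjusted p = 0.0912). In organoids Il1rap was 0 to 757 CP20M, the 0 being the shallow library, and vehicle tumoroids against vehicle colonoids gave a log2 difference of 1.08 ± 0.73 (limma, adjusted p = 0.533). It was below vehicle in the 3 tumoroids at both doses, from 757, 446 and 373 to 393, 251 and 319 at R4 and 255, 222 and 169 at R8. The log2 fold change with regorafenib over both genotypes was −0.89 ± 0.45 (limma, adjusted p = 0.156), and without the shallow library −0.58 ± 0.24 (limma, adjusted p = 0.0639).

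Across the comparisons 6 of 7 members passed the filter on low values in organoids and 3 of 7 in fibroblasts, and of these 5 and 2 were tested. With regorafenib in organoids 0 of 5 were past the threshold, where 4.97% of the 11320 genes tested were, and the median log2 fold change of these 5 members was −0.886 against −0.103 over all genes tested. Of vehicle tumoroids against vehicle colonoids, the difference between genotypes in the response and R8 against R4, 0 of 5 were past the threshold in each, against 0.141%, 0.00883% and 0.451% of all genes, and the medians of the 5 members were −0.331, 0.456 and −0.606 against 0.0546, 0.1022 and 0.1117. With 5-FU it was 0 of 5 against 2.35%, with medians of 0.179 and −0.0063. In fibroblasts 0 of 2 were past the threshold at R4 against 1.02% of 11032 genes, and 0 of 2 at R10 against 7.33%, where the replicate block gave 1 of 2 against 13.8%. With A1 it was 0 of 2 against 0% by limma, where 120 genes had an unadjusted p under 0.05 and edgeR on the recovered reads also gave 0, and with A1 added to R4 0 of 2 against 0.00906%. The fibroblast comparisons with vehicle share their vehicle libraries, as do those in organoids.

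**Figure D3:**
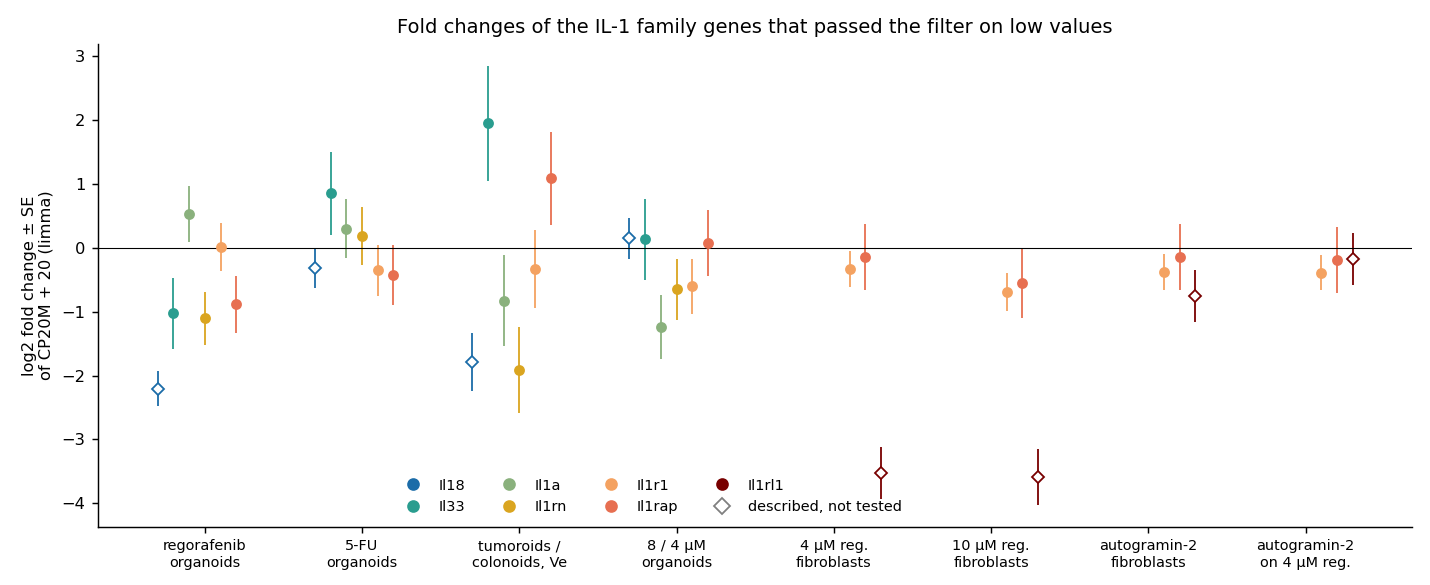
Fitted log2 fold changes (limma on log2 of CP20M + 20, points, with SE as vertical lines) of the members that passed the filter, for 8 of the 9 comparisons. Open diamonds are Il18 in organoids and Il1rl1 in fibroblasts, which are described and not tested. Il1rl1 sits at −3.53 and −3.58 with regorafenib in fibroblasts, and Il18 at −2.20 in organoids.

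The list of other ligands, receptors, signalling genes and targets held 56 further genes, of which 35 passed the filter in organoids and 29 in fibroblasts. No other ligand or antagonist passed. Il1b, the other main IL-1 agonist, was at most 2 CP20M in organoids and 3 in fibroblasts, and Il18bp, which encodes a soluble inhibitor of IL-18, was at most 212 and 78, with exons that overlap Numa1 on the opposite strand. The decoy receptor gene Il1r2 was at most 40 and 8.

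The 2 chains of the IL-18 receptor lay above vehicle at R4 in all 6 organoid lines, but neither passed the threshold with regorafenib without the replicate block. Il18r1 was 216, 586 and 228 CP20M in vehicle colonoids M41, M40 and M1 and 508, 1549 and 1135 at R4. In tumoroids F11, M3 and M14 it was 24, 178 and 202 in vehicle and 279, 1212 and 724 at R4. It was above vehicle in 6 of 6 lines at R4 and at R8, by mean log2 values of 1.98 and 1.67. Its log2 fold change over both doses was 1.83 ± 0.40 (limma, adjusted p = 0.0035), which missed the FDR of 0.001, and with the replicate block, under which 6.67% of all genes passed, it passed (limma, adjusted p = 3.07e-05). Without the shallow library it was 1.94 ± 0.39 (limma, adjusted p = 0.00125).

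Il18rap, the accessory chain, was 331, 751 and 237 CP20M in vehicle colonoids, 1366, 1870 and 1323 at R4 and 375, 692 and 495 at R8. In tumoroids it was 53, 40 and 289 in vehicle, 485, 850 and 959 at R4 and 170, 299 and 358 at R8. All 6 lines were higher at R4 than in vehicle, and all 6 were lower at R8 than at R4. Over both doses the log2 fold change was 1.59 ± 0.33 (limma, adjusted p = 0.00242, above the FDR of 0.001, and 0.000395 with the replicate block, which passed), and without the shallow library 1.61 ± 0.34 (limma, adjusted p = 0.00184). R8 against R4 gave −1.47 ± 0.38 (limma, adjusted p = 0.0941), and the replicate block gave a call (limma, adjusted p = 0.0196), as it did for 1.78% of all genes. With 5-FU Il18rap rose by 1.77 ± 0.39 on the log2 scale, in 6 of 6 lines (limma, adjusted p = 0.0179). That call was lost without colonoid line M1 (limma, adjusted p = 0.155) and without tumoroid line M3 (limma, adjusted p = 0.17). Il18r1 was above vehicle with 5-FU in 6 of 6 lines, with a log2 fold change of 1.24 ± 0.50 that passed with the replicate block (limma, adjusted p = 0.00124, with 5.05% of all genes past the threshold) and not without it (limma, adjusted p = 0.213). In vehicle, tumoroids against colonoids gave −1.89 ± 0.53 for Il18rap (limma, adjusted p = 0.0926) and −1.40 ± 0.65 for Il18r1 (limma, adjusted p = 0.32).

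In fibroblasts Il18rap fell with regorafenib. Lines M3, M3(2), M1(2) and M11 had 725, 512, 694 and 317 CP20M in vehicle and 86, 85, 96 and 24 at R4, and the 3 lines at R10 had 40, 21 and 37. Vehicle and regorafenib did not overlap. The log2 fold change was −2.68 ± 0.39 at R4 (limma, adjusted p = 0.00116) and −3.42 ± 0.42 at R10 (limma, adjusted p = 7.24e-05). The call at R4 was lost without line M3 (limma, adjusted p = 0.0669) or without line M1(2) (limma, adjusted p = 0.0555), while that at R10 was kept without each line in turn. With A1 the lines had 508, 392, 567 and 169, a log2 difference of −0.50 ± 0.39 (limma, adjusted p = 1.0). Its partner Il18r1 was at most 3 CP20M in fibroblasts, so the accessory chain was read there without the binding chain. Il1rl2, the IL-36 receptor, was 174 ± 57.4 in vehicle (n = 4), 92.8 ± 42.1 at R4 and 73.0 ± 35.6 at R10 (n = 3). Its log2 fold changes of −0.80 and −1.08 were not past the threshold (limma, adjusted p = 0.354 and 0.0838) and passed with the replicate block (limma, adjusted p = 0.00294 and 9.2e-05). Sigirr, an inhibitory receptor of the family, differed with regorafenib in organoids by −0.12 ± 0.18 on the log2 scale (limma, adjusted p = 0.66).

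**Figure D4:**
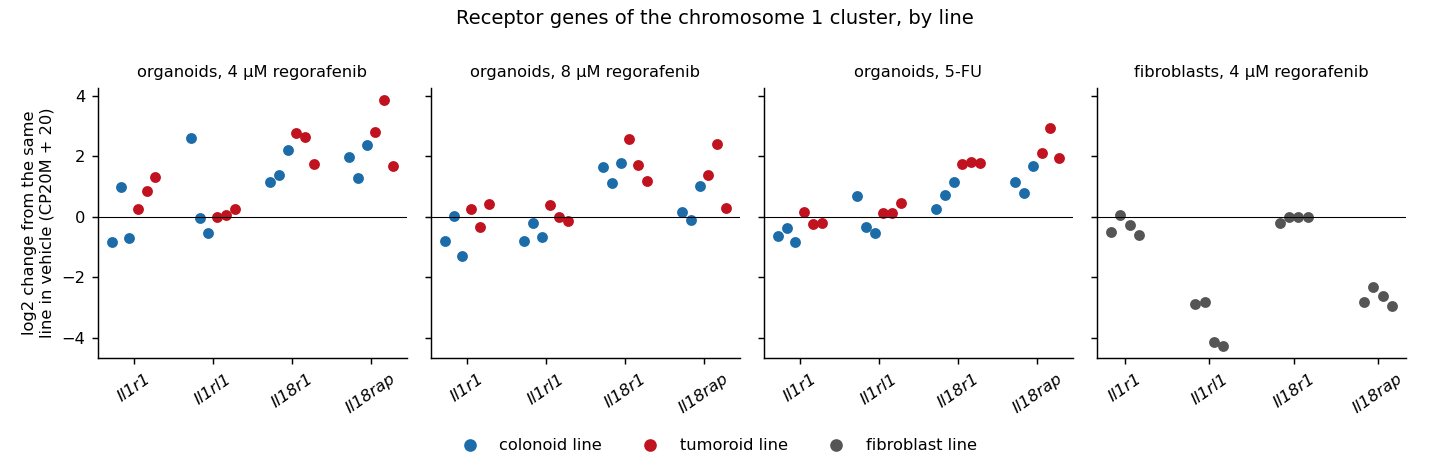
Change of 4 receptor genes of the chromosome 1 cluster in each line against the same line in vehicle, as a difference of log2 of CP20M + 20, in organoids at R4, R8 and 5-FU and in fibroblasts at R4. Each point is a line. Il18r1 and Il18rap lie above 0 in all 6 organoid lines at R4 and with 5-FU, Il1rl1 and Il18rap lie below −2 in all 4 fibroblast lines, and the Il1rl1 point at 2.60 is the 6 reads of the shallow library.

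Among signalling genes, 2 of 18 adaptors, kinases and NF-kB genes tested in organoids fell with regorafenib and 0 rose. Nfkbia, the inhibitor of NF-kB that NF-kB itself induces, fell by 0.82 on the log2 scale (limma, adjusted p = 0.000497), and the colonoids held 1613 ± 114 CP20M in vehicle, 906 ± 92.3 at R4 and 556 ± 27.8 at R8, against 1136 ± 315, 883 ± 202 and 741 ± 212 for the tumoroids (n = 3 each). Nfkbiz, an inducible regulator of NF-kB targets, fell by 1.28 (limma, adjusted p = 0.000108) and was lower than vehicle in 6 of 6 lines at each dose. Of 8 inflammasome and caspase genes 1 fell and 0 rose. That gene was Gsdmd, which encodes the pore protein through which mature IL-1 family cytokines can leave cells, and it fell by 1.36 (limma, adjusted p = 0.0003), from 3260 ± 706 to 1001 ± 450 in colonoids and from 3050 ± 74.0 to 1431 ± 582 in tumoroids between vehicle and R8. Casp1, which matures IL-18, was 658 ± 119 in vehicle colonoids and 357 ± 88.4 at R8, was not past the threshold and was named after its values were seen. Of 6 target genes tested 0 passed in either direction. Over the whole list 3 of 35 fell and 0 rose, where 4.97% of all genes passed in either direction, with a median log2 fold change of −0.172 against −0.103 over all genes. Without line M40 0 of 35 passed and without line M1 0 of 34, while 1 of 35 passed without F11 or without M14. Calls over all genes fell in these fits as well. They went from 563 to 223 without M40, 217 without M1, 223 without F11 and 155 without M14. The loss is thus not particular to the list. With 5-FU Nfkbiz fell by 0.77 (limma, adjusted p = 0.0373), a call kept without F11 and lost without any other single line. Beside Il18rap no other gene of the list passed with 5-FU, where 2.35% of all genes did. For R8 against R4 0 of 35 passed, where 0.451% of all genes did. The block, under which 1.78% of all genes passed, gave 2 that fell, Il18rap and Tnfaip3, which encodes the NF-kB inhibitor A20.

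In fibroblasts the chemokine genes Ccl2 and Ccl7, which draw in monocytes and are known targets of IL-1, fell at R10. Ccl2 went from 1351 ± 603 CP20M in vehicle (n = 4) to 284 ± 191 (n = 3), a fall of 2.21 on the log2 scale (limma, adjusted p = 0.0101) that did not pass without line M3(2) (limma, adjusted p = 0.166). Ccl7 went from 953 ± 286 to 276 ± 64.8, a fall of 1.69 (limma, adjusted p = 0.000933). The macrophage markers given above were lower at R10 as well, at a sum of 609 to 651 CP20M against 1179 to 5561 in vehicle, and their part in these values was not tested. With Il18rap these were 3 of 29 genes that fell at R10, and 0 rose, where 7.33% of all genes passed. At R4 1 of 29 fell, Il18rap, and 0 rose, where 1.02% of all genes passed. With A1 or with A1 added to R4 0 of 29 passed, where 0% and 0.00906% of all genes did. With the replicate block, under which 7.22% and 13.8% of all genes passed at R4 and R10, 3 of 29 rose and 4 fell at R4, and 0 rose and 7 fell at R10. Those that rose at R4 were Nfkbia, Icam1 and Lcn2, and those that fell were Il18rap, Il1rl2, Nfkbiz and Ptgs2. Adding A1 to R4 gave 2 that fell with the block, Lcn2 and Ccl7, where 1.43% of all genes passed.

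The genes most like Il18 over the 24 organoid libraries, by Pearson correlation of log2 of CP20M + 20 among 11561 genes, were Rmnd5a (0.915), Golph3l (0.911), Car1 (0.895), R3hdm4 (0.893) and Ipmk (0.887), against a median over all genes of 0.143. Car1, for instance, was 12490 ± 3480 CP20M in vehicle colonoids and 346 ± 340 at R8. Those most like Il1rl1 over the 19 fibroblast libraries, among 11031 genes, were 2810474O19Rik (0.939), Pign (0.935), Il18rap (0.934), Vcan (0.929) and Vat1l (0.916), against a median of 0.0251. Vcan, which encodes the matrix proteoglycan versican, was 3526 ± 202 in vehicle, 1660 ± 217 at R4 and 3091 ± 562 with A1 (n = 4 each). These are descriptions, since the libraries share lines and treatments and the levels of Il18 and Il1rl1 were known when they were chosen.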

How the data were processed

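RNA was measured in 24 organoid and 19 fibroblast libraries. The authors trimmed reads (Trimmomatic 0.36), aligned them to GRCm38 (STAR 2.5.3a), counted them per gene (HTSeq 0.9.1; tools per the labels) and scaled each library to 20000000, so the deposited values are a signal, CP20M, rounded up and not divided by length. Whole reads were recovered from the steps of the values (96.8% to 100% whole). Groups came from the labels. Titles of the 3 tumoroid 5-FU libraries say colonoid, and these were grouped by genotype and library name. Genes with at least 200 CP20M in 2 libraries were tested with limma 3.58.1 (R 4.3.3) on log2(CP20M + 20), 1 coefficient per group, with Benjamini-Hochberg adjustment over all genes tested. Thresholds were FDR 0.001 for regorafenib in organoids, 0.01 for genotype and 0.05 otherwise, with an absolute log2 fold change of 0.585, or 1 for genotype, and none for the difference between genotypes. edgeR 4.0.16 on recovered reads was an alternative. The fit was tested on simulated counts with 4-fold changes, of which it recovered 99% to 100%. The simulation held no differences between lines, so it does not show how the fit does where lines differ. Same-line libraries deviated together (mean correlation 0.429 in organoids with vehicle or regorafenib, 0.503 in all organoids and 0.719 in fibroblasts), and lines are individual mice, so the line was used as a replicate block in an alternative fit. Within groups no libraries were copies of each other (51 pairs compared), and libraries of different groups were not compared. The genes named are all members, list genes past the threshold (at most 6 a comparison), listed receptors or ligands that passed the filter, the 5 genes most like Il18 and Il1rl1, and cell type markers. Outside this rule, Il1b, Il18bp and Il1r2 are named though they did not pass the filter, and Casp1 though it was not past the threshold. The members and lists were chosen with earlier results of these data known. Levels per kilobase use exon lengths of GENCODE M21.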

Additional observations from a re-analysis of the deposited data

Results flagged for a closer look

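In fibroblast groups of 4 libraries, 5 of 28 gene and group combinations had 1 library far from the other 3. A chance rate of about 1 in 20 cannot be set against this, because the values are small counts with ties and the same lines recur across groups. Line M1(2) was the high library for Il33 at R4 (44 CP20M against 8 to 14) and with R4A1 (46 against 12 to 15), and it was also the highest for Il33 in the other groups. The same line was high with A1 for Il18 (14 CP20M against 3) and for Il1rn (12 against 5 and 6). For Il1rn at R4 line M3 had 2 CP20M and the others 0. All 5 values are below the filter on low values and rest on few reads.

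Il1a moved in opposite directions with R8 in the genotypes. It was below vehicle in 3 of 3 colonoids, by a mean of −0.479 on the log2 scale, with lines from −1.222 to −0.0943. In 3 of 3 tumoroids it was above vehicle, by 0.276, with lines from 0.1375 to 0.5305, a difference between the means of 0.755. The difference at this dose was not tested, and the values are 14 to 64 CP20M.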

How the results depend on the processing

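Of 548 member fold changes under an alternative, 522 kept their direction and side of the threshold. The 548 include Il18 in organoids and Il1rl1 in fibroblasts. Those values were known beforehand and are described only, so their side of the threshold is no test. Newly past it were 3 (Il1r1 at R10 with the replicate block, −0.86, and without fibroblast line M11, −0.75, and Il33 with 5-FU with the block and without the shallow library, 0.85). Another 2 moved (Il1rl1 with 100 CP20M added, −2.76 at R4 and −2.80 at R10) and 21 turned in sign, none of them past the threshold. The sizes moved more than the calls: Il1a for R8 against R4 ran from −2.26 with edgeR to −0.72 with 100 CP20M added, Il1a with regorafenib from 0.32 to 1.12 under the same alternatives, and the genotype difference of Il18 from 1.146 without M41 to 2.14 without colonoid M1. The replicate block changed no other call of a tested member. The turned values were Il1r1 with regorafenib (−0.0086 with 5 CP20M added, −0.2273 to 0.1519 without a line, −0.0932 among them), Il1r1 by genotype (0.0105 without F11, −0.5596 to 0.0105 without a line), the genotype difference of Il1rap (0.2678 with 5 added, −0.6335 to 0.2781 without a line or library, 0.0112 and 0.121 among them) and of Il33 (−0.0475 to 1.0149), and R8 against R4 for Il1rap (−0.1035 with 100 added, −0.457 with edgeR, −0.5388 with the block and without the shallow library, −0.6268 to 0.4582 without a line or library, −0.5258 and −0.0152 among them), Il33 (−0.035 with edgeR, −0.133 without the shallow library to 0.2563 without M40) and Il18 (−0.039 with edgeR, −0.1003 with the block and without the shallow library, −0.1373 and −0.0031 without that library or its line, up to 0.3569 without M40). The cause was not tested.

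Counts of genes past the threshold moved more. Regorafenib in organoids gave 563, 889 with edgeR, 1835 at an FDR of 0.05, 1428 with the block and without the shallow library, and 155 to 1127 without a line or library. Genotype gave 16, 30 with TMM factors, 7 and 33 with 5 and 100 CP20M added, 27 with edgeR, 46 with all 24 libraries and 3 to 84 without a line or library, and no block could be fitted there. The genotype difference gave 1, 0 with TMM factors, 5 added, edgeR or all 24 libraries, 3 without the filter and 0 to 1 without a line or library. R8 against R4 gave 51, 201 with the block, 96 with TMM factors, 96 with edgeR, 10 without the filter, 98 with all 24 libraries, 295 with the block and without the shallow library and 0 to 130 without a line or library. With 5-FU 272, 584 with the block, 153 without the filter, 427 with edgeR, 810 with the block and without the shallow library and 26 to 493 without a line or library. R4 in fibroblasts gave 113, 796 with the block and 28 to 317 without a line. R10 gave 809, 1519 with the block and 358 to 1118 without a line. A1 gave 0 throughout, and A1 added to R4 gave 1, 158 with the block, and 0 with TMM factors, edgeR or without any line. The fits without a line have fewer samples. With 3 or 4 lines a group, differences of the low members Il1a and Il1rl1 in organoids and Il18, Il33, Il1a and Il1rn in fibroblasts were at the limit of depth.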
